A study of Mus musculus with 9 samples.

Results

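The matrix metalloproteinase (Mmp), tissue inhibitor of metalloproteinase (Timp) and Adamts genes were examined in whole mandibles, teeth included, by RNA sequencing. These gene families were chosen with earlier results of these data known. Their members were taken by gene symbol alone and comprised 23 Mmp, 4 Timp and 19 Adamts genes, 46 of the 27179 genes counted. Of these, 39 had enough counts to be tested, among 16329 genes tested in all, and 7 did not. The mice were 6 months old and of strain C57BL/6, and the labels name no treatment. WT mice (n = 5) were compared with mice labelled FcgRIIB-/- (n = 4), a line without the inhibitory Fc receptor for IgG that serves as a mouse model of lupus-associated bone loss. The study's methods name males for the knockout line, and the sex of the WT controls is not spelled out there or in the labels. The deletion is not restricted to a cell type by any promoter that the sources name, and each library is 1 mouse.

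MMPs are zinc endopeptidases that are made as inactive precursors and cut collagens, gelatin, elastin and other matrix proteins once the propeptide is removed. TIMPs bind the active site and hold these enzymes in check, and TIMP2 also bridges precursor MMP2 to MMP14 at the cell surface for activation. ADAMTS proteases carry thrombospondin repeats that attach them to the matrix, and they cut aggrecan and versican, trim procollagen or bind fibrillin. In bone and tooth, MMP9 is known as an osteoclast and neutrophil enzyme, MMP13 as the collagenase of osteoblasts and hypertrophic chondrocytes, MMP14 as the membrane collagenase of mesenchymal cells and osteoclasts, and MMP20 as the enamel protease of ameloblasts.

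The targeted gene and the libraries were checked first. Fcgr2b reads numbered 577, 954, 442, 630 and 529 in the WT mice, and 757, 562, 628 and 634 in the mice of the knockout label. As CPM, which scales each count to the normalized size of its library, the means were 24.0 ± 8.28 (SD, n = 5) and 27.8 ± 2.90 (SD, n = 4), so Fcgr2b was not lower under the knockout label (edgeR's quasi-likelihood test, log2 fold change 0.21, standard error 0.20, adjusted p = 0.442). Without WT replicate 2 it passed as higher (log2 fold change 0.46, adjusted p = 0.0131). Directions below are therefore between libraries by their labels. Totals lay between 21453880 and 28991631 counts per library. Bone and tooth markers were present in every library, with summed osteoblast and osteocyte markers between 28119 and 44068 CPM in WT and between 30039 and 41603 CPM in the libraries labelled FcgRIIB-/-. WT replicate 5 stood apart, with the highest sum of neutrophil markers at 3653 CPM against 1207 to 1900 CPM in the other WT mice, and with the lowest sum of ameloblast markers at 9412 CPM against 15848 to 25562 CPM.

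Of the mouse Mmp genes, 10 lie side by side on chromosome 9 of mm10 from 7272514 to 7699585, a stretch of 427 kb that holds Mmp13, Mmp12, Mmp1b, Mmp3, Mmp1a, Mmp10, Mmp8, Mmp27, Mmp20 and Mmp7 in this order. This stretch carried results in both directions. Among its 6 tested genes, Mmp12, Mmp10 and Mmp8 fell (3 genes, where 19.3% of all tested genes fell), Mmp20 rose (1 gene, where 14.0% rose), and Mmp13 and Mmp3 did not pass the test. MMP promoters are known for sites of the transcription factor AP-1, so the letters TGANTCA, with any base at N, were looked for. The search covered the 250 bases before each start in RefSeq (GRCm38.p6), and the letters read the same on both strands apart from the middle base. They were present in 8 of the 32 members that RefSeq windows matched, and in 7.82% of the 27025 genes with a window. All 8 lay in the chromosome 9 stretch, where Mmp8 and Mmp27 were the genes without them. Of the 11 matched members that fell, 2 carried them (Mmp12 and Mmp10). In Mmp12 only the window of its second start held the letters. Mmp2, Mmp9, Adamts7 and Adamts15, which also fell, had no matched window and could not be searched for these letters. The stretches of the 5 tested genes that carried them are shown, 5′ to 3′ on the plus strand with the AP-1 letters in capitals, to set the shared letters of neighbouring genes beside their different results. They lie at chr9:7272459-7272505 for Mmp13, chr9:7347310-7347356 for the second start of Mmp12, chr9:7445756-7445802 for Mmp3, chr9:7502259-7502305 for Mmp10 and chr9:7628116-7628162 for Mmp20.
Mmp13: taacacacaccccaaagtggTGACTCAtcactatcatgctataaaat
Mmp12: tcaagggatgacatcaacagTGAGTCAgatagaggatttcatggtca
Mmp3: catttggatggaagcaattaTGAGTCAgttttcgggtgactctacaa
Mmp10: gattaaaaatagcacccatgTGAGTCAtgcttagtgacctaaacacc
Mmp20: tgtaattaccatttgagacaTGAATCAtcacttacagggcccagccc

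The letters began 35 bases before the start in Mmp13, 44 in Mmp12, 46 in Mmp3, 63 in Mmp10 and 95 in Mmp20. They were the same, TGAGTCA, in Mmp12 and Mmp10, which fell, and in Mmp3, which did not pass. Mmp13, which did not pass, had TGACTCA, which is TGAGTCA read on the other strand. Mmp20, which rose, had TGAATCA, which was taken because any middle base was allowed. A match of letters describes the sequence and does not show that a factor bound there. The letters TATAAA, on the strand of the gene, were present in 9 of the 32 matched members against 8.94% of genes, and TGTGGT, a core of Runx sites on either strand, in 6 of the 32 against 15.9% of genes. Of the 11 matched members that fell, TATAAA was present in 2 and TGTGGT in 2.

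Lower expression was the more frequent direction among the tested members. At an adjusted p under 0.05, 15 members fell in the libraries labelled FcgRIIB-/-, or 38.5% of the 39 tested, where 19.3% of all tested genes fell. Only Mmp20 and Timp4 rose, or 5.13% of the members, where 14.0% of all tested genes rose. The other 22 members did not pass, with log2 fold changes between -1.04 and 0.75. The tested members had a median log2 fold change of -0.32, and all tested genes had one of 0.01. The genotypes did not overlap in CPM in 14 members, where 29.6% of all genes did not, being lower in 13 (33.3%, against 17.5% of all genes) and higher in 1 (2.56%, against 12.1%). At a log2 fold change of -1 or below, 5 members fell (12.8%, against 6.55%), namely Mmp8, Mmp25, Mmp9, Adamts18 and Mmp10, and at 1 or above Timp4 rose (2.56%, against 1.11%). DESeq2 called 16 members as lower and 2 as higher, where 17.9% and 14.9% of the genes it tested were. By family, 8 of 17 tested Mmp genes fell and 1 rose, 1 of 4 Timp genes fell and 1 rose, and 6 of 18 tested Adamts genes fell and none rose. At an unadjusted p under 0.05, 1 Adamts gene was higher in edgeR (Adamts10), and DESeq2 called 0 as higher at an adjusted p under 0.05.

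**Figure D1:**
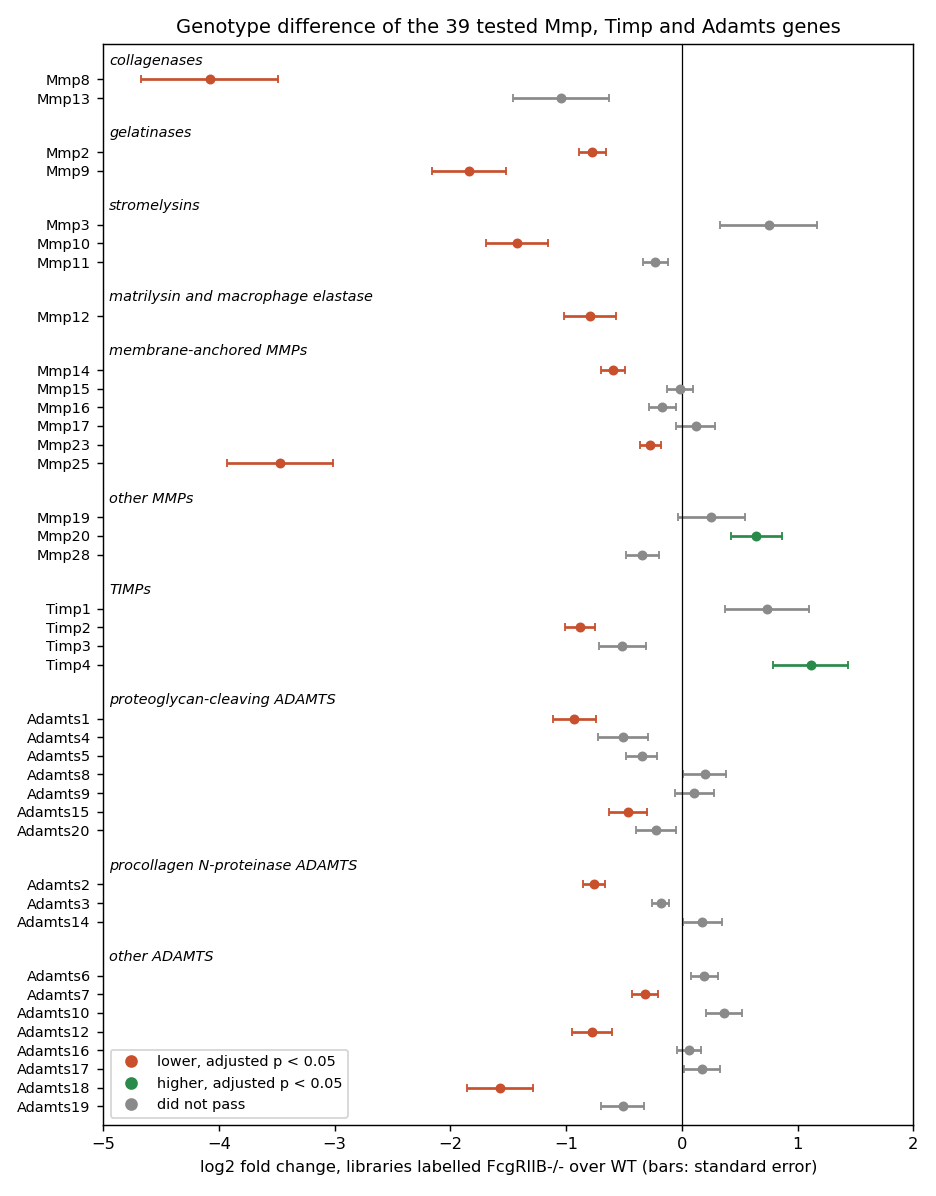
Log2 fold change of the libraries labelled FcgRIIB-/- (n = 4) over WT (n = 5) for the 39 tested members, grouped by role, with bars of 1 standard error and colours for the edgeR call at an adjusted p under 0.05. Mmp8 at -4.08 and Mmp25 at -3.47 lie far to the left of the other members, 15 members fell, and Mmp20 and Timp4 rose.

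The collagenases cut fibrillar collagen. Mmp8 (gene 17394, chromosome 9 from 7558429 to 7568486), the collagenase stored in neutrophil granules, was at 20.2, 19.9, 13.4, 21.0 and 76.1 CPM in WT replicates 1 to 5 and at 2.42, 1.34, 2.37 and 0.811 CPM in replicates 1 to 4 labelled FcgRIIB-/-, an order kept for all values below. Every WT mouse was above every mouse of the other label, and WT replicate 5 was far above the rest. Mmp8 fell to 5.91% of the WT level (log2 fold change -4.08, standard error 0.59, adjusted p = 0.00110), and without WT replicate 5 its log2 fold change was -3.37 (adjusted p = 8.91e-05). Mmp13 was at 426, 1413, 479.9, 514 and 656 CPM in WT and at 336, 387, 494 and 139.8 CPM in the libraries labelled FcgRIIB-/-. The groups overlapped, with WT replicate 2 highest and FcgRIIB-/- replicate 4 lowest. The difference did not pass (log2 fold change -1.04, standard error 0.41, adjusted p = 0.0761), and 2 standard errors either side of it spanned -1.87 to -0.21. Mmp1a had 0 counts in every library, which allows up to 0.105 to 0.152 CPM at 3 counts per library, and Mmp1b had at most 3 counts. Both are rodent counterparts of human interstitial collagenase and close copies of each other, and how reads shared by such copies were counted is not given in the sources used here.

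Both gelatinases, which cut denatured collagen and basement membrane collagen, fell. Mmp9 (gene 17395, chromosome 2 from 164940326 to 164955850) was at 223, 314, 217, 214 and 355 CPM in WT and at 102, 89.7, 75.3 and 28.7 CPM in the libraries labelled FcgRIIB-/-. The highest mouse of the knockout label was far below the lowest WT mouse, and FcgRIIB-/- replicate 4 was lowest of all. The fold of WT over the libraries labelled FcgRIIB-/- was 3.58 (log2 fold change -1.84, standard error 0.32, adjusted p = 0.00240). Mmp2 (gene 17390, chromosome 8 from 92827290 to 92853421) was at 1037, 1179.6, 1106, 980.2 and 1359.5 CPM in WT and at 759, 634, 614 and 644 CPM in the libraries labelled FcgRIIB-/-. All WT mice were higher, within a narrow range in each group. Mmp2 fell to 58.5% of WT (log2 fold change -0.77, standard error 0.12, adjusted p = 0.00121).

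Of the 3 stromelysins, which cut proteoglycans, laminin and fibronectin and activate other MMPs, Mmp10 fell and 2 did not pass. Mmp10 was at 2.75, 2.49, 1.54, 2.17 and 2.73 CPM in WT and at 1.16, 0.786, 0.974 and 0.507 CPM in the libraries labelled FcgRIIB-/-. The groups did not overlap, although the level was low in all mice (log2 fold change -1.43, standard error 0.27, adjusted p = 0.00347). Mmp11, a stromelysin that is activated inside the cell by furin, was at 37.5, 37.9, 39.4, 37.2 and 32.6 CPM in WT and at 34.0, 30.8, 24.8 and 36.5 CPM in the libraries labelled FcgRIIB-/-. Its groups overlapped, and the difference did not pass (log2 fold change -0.23, standard error 0.11, adjusted p = 0.125). Mmp3 pointed the other way, with overlapping groups, and did not pass in edgeR (log2 fold change 0.75, standard error 0.42, adjusted p = 0.190). Without FcgRIIB-/- replicate 4 it passed as higher (adjusted p = 0.0452).

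Mmp12, the macrophage elastase, was at 13.7, 7.46, 6.32, 10.5 and 7.50 CPM in WT and at 4.41, 4.81, 5.80 and 6.03 CPM in the libraries labelled FcgRIIB-/-. The groups were separate, with the lowest WT value of 6.32 CPM close to the highest value of 6.03 CPM under the knockout label. Mmp12 fell to 57.7% of WT (log2 fold change -0.79, standard error 0.23, adjusted p = 0.0226). The call was lost without WT replicate 4 (log2 fold change -0.72, adjusted p = 0.0541), without FcgRIIB-/- replicate 1 (-0.71, adjusted p = 0.0638) and without FcgRIIB-/- replicate 2 (-0.75, adjusted p = 0.0575). Mmp7, the matrilysin of secretory epithelia, had at most 2 counts in any library and was not tested.

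The membrane-anchored MMPs act at the cell surface, and 3 of the 6 tested fell, where 19.3% of all tested genes did. Mmp25, leukolysin, is held on the neutrophil surface by a lipid anchor. It (gene 240047, chromosome 17 from 23628315 to 23645269) was at 3.70, 4.61, 1.73, 3.38 and 8.32 CPM in WT and at 0.315, 0.323, 0.508 and 0.405 CPM in the libraries labelled FcgRIIB-/-. All mice of the knockout label were under 1 CPM and every WT mouse was above it. Mmp25 fell to 9.0% of WT (log2 fold change -3.47, standard error 0.46, adjusted p = 7.05e-04). Mmp14 (gene 17387, chromosome 14 from 54431598 to 54442456), which cuts collagen at the cell surface and activates precursor MMP2, was at 739.6, 828, 812, 727 and 862 CPM in WT and at 575, 509, 439 and 579 CPM in the libraries labelled FcgRIIB-/-. The groups did not overlap, and the SD was at most 65.9 CPM in either group (log2 fold change -0.59, standard error 0.10, adjusted p = 0.00242).

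Mmp23, a small membrane enzyme released by cutting of its own precursor, was at 62.0, 72.1, 72.2, 65.4 and 66.6 CPM in WT and at 61.0, 52.2, 47.4 and 63.7 CPM in the libraries labelled FcgRIIB-/-. Its groups overlapped at 62.0 CPM in WT replicate 1 and 63.7 CPM in FcgRIIB-/- replicate 4. It passed narrowly (log2 fold change -0.27, standard error 0.09, adjusted p = 0.0435), and the call was lost without WT replicate 2, 3, 4 or 5 or FcgRIIB-/- replicate 2 or 3, with log2 fold changes between -0.27 and -0.20 and adjusted p between 0.0746 and 0.110. Mmp15, Mmp16 and Mmp17 did not pass, with log2 fold changes between -0.17 and 0.12, and Mmp24 had at most 7 counts in any library and was not tested.

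Among the other MMPs, Mmp20 rose. This enzyme, enamelysin, cuts amelogenin and other enamel matrix proteins. It was at 186, 282, 250.0, 232 and 116 CPM in WT and at 267, 368, 323 and 374 CPM in the libraries labelled FcgRIIB-/-. The groups overlapped through WT replicate 2 and FcgRIIB-/- replicate 1, and WT replicate 5 was lowest. Mmp20 was 1.56-fold higher (log2 fold change 0.64, standard error 0.22, adjusted p = 0.0435). The call was lost without WT replicate 1 (adjusted p = 0.0757) or 4 (0.0543) or FcgRIIB-/- replicate 2 (0.0994), 3 (0.0768) or 4 (0.103), with log2 fold changes between 0.59 and 0.70. Mmp19 and Mmp28 did not pass (log2 fold changes 0.25 and -0.34), and Mmp21 with at most 1 count and Mmp27 with at most 14 counts in any library were not tested. Mmp28 passed as lower in edgeR without WT replicate 2 (adjusted p = 0.0448) and without FcgRIIB-/- replicate 3 (adjusted p = 0.0397).

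**Figure D2:**
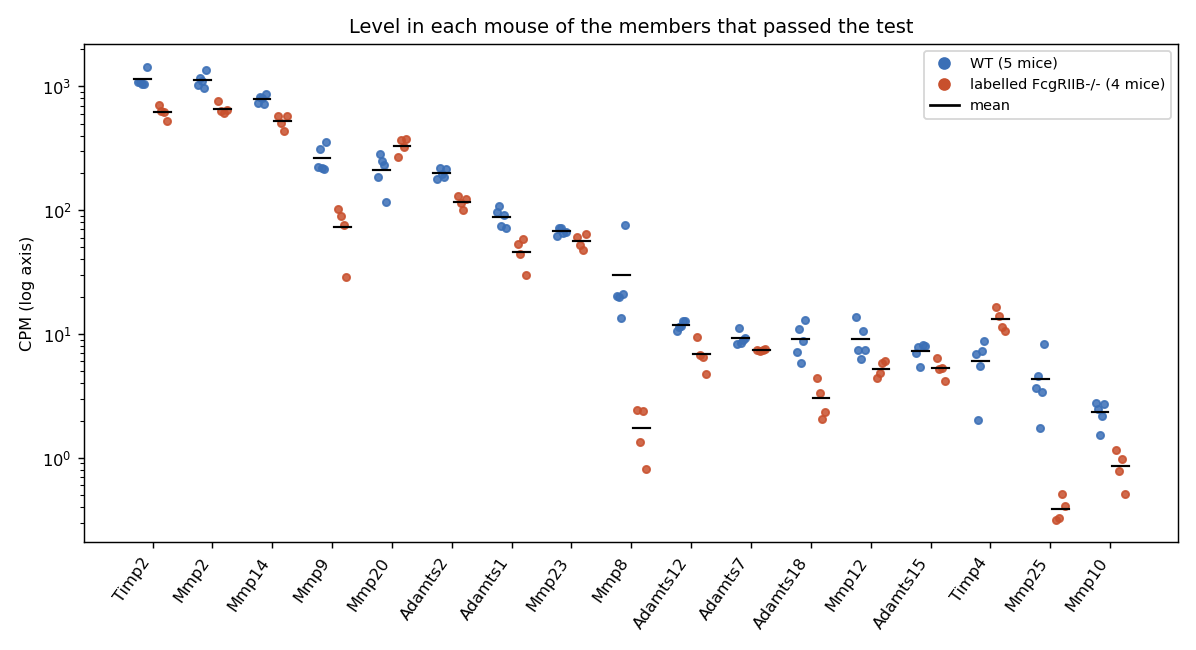
CPM in each mouse (log axis) of the 17 members that passed the test, in order of mean level, with 5 WT mice, 4 mice labelled FcgRIIB-/- and a bar at each mean. The groups are separate in 14 of them and overlap in Mmp20, Mmp23 and Adamts15, and WT replicate 5 stands above the other WT mice in Mmp8 and Mmp25.

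Of the 4 inhibitors 1 fell, 1 rose and 2 did not pass, where 19.3% of all tested genes fell and 14.0% rose. Timp2 (gene 21858, chromosome 11 from 118301061 to 118355411), the broad inhibitor that also takes part in activating MMP2, was at 1092, 1095, 1038, 1053 and 1445 CPM in WT and at 713, 629, 626 and 524 CPM in the libraries labelled FcgRIIB-/-. The lowest WT mouse was far above the highest mouse of the knockout label. Timp2 fell to 54.4% of WT (log2 fold change -0.88, standard error 0.13, adjusted p = 0.00111). Timp4, an inhibitor best known from heart and muscle, was at 6.85, 2.01, 5.51, 7.34 and 8.78 CPM in WT and at 16.6, 14.1, 11.4 and 10.6 CPM in the libraries labelled FcgRIIB-/-. The groups did not overlap, and Timp4 was 2.16-fold higher (log2 fold change 1.11, standard error 0.32, adjusted p = 0.0232). The call was lost without FcgRIIB-/- replicate 1 (log2 fold change 0.98, adjusted p = 0.0668) and without FcgRIIB-/- replicate 2 (1.08, adjusted p = 0.0523). Summed skeletal muscle markers lay between 7285 and 16915 CPM in WT and between 17716 and 30601 CPM in the libraries labelled FcgRIIB-/-, and 6 of the 10 rose, where 14.0% of all tested genes did. Their part in the result was not tested.

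Timp1, an inhibitor induced in inflammation and wound repair, was at 39.1, 76.9, 45.8, 39.1 and 50.6 CPM in WT and at 49.6, 74.0, 166 and 45.0 CPM in the libraries labelled FcgRIIB-/-. Its highest value was that of FcgRIIB-/- replicate 3, and the other mice of that label lay within the WT range. The difference did not pass (log2 fold change 0.73, standard error 0.36, adjusted p = 0.142), and 2 standard errors either side spanned 0.01 to 1.46. Timp3, which binds to the matrix and also inhibits ADAM and ADAMTS proteases, was at 1136, 1126, 1255, 1152 and 2209 CPM in WT and at 933, 887, 1136 and 897 CPM in the libraries labelled FcgRIIB-/-. WT replicate 5 was far above the others, and FcgRIIB-/- replicate 3 reached the WT range. Timp3 did not pass in edgeR (log2 fold change -0.51, standard error 0.21, adjusted p = 0.0772) and passed in DESeq2 (log2 fold change -0.50, adjusted p = 0.0398). Of its exon length, 21.3% is shared with the gene Syn3 on the opposite strand, and without a stated strand setting reads of such partners cannot be told apart. Shorter overlaps of this kind, between 1.53% and 5.58% of the exon length, exist for Mmp11, Mmp12, Timp4 and Adamts7.

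The proteoglycan-cleaving ADAMTS enzymes cut aggrecan and versican, and 2 of the 7 tested fell, a share not far from the 19.3% of all tested genes that did. Adamts1 was at 96.3, 108, 74.3, 92.1 and 72.1 CPM in WT and at 53.3, 44.0, 58.1 and 30.1 CPM in the libraries labelled FcgRIIB-/-. The groups did not overlap, and it fell to 52.5% of WT (log2 fold change -0.93, standard error 0.18, adjusted p = 0.00423). Adamts15 was at 7.03, 7.91, 5.44, 8.19 and 8.0 CPM in WT and at 6.41, 5.22, 5.30 and 4.16 CPM in the libraries labelled FcgRIIB-/-. Its groups overlapped in WT replicate 3, and it passed by little (log2 fold change -0.47, standard error 0.16, adjusted p = 0.0493). The call was lost without WT replicate 1, 2, 4 or 5 or FcgRIIB-/- replicate 2, 3 or 4, with log2 fold changes between -0.47 and -0.37 and adjusted p between 0.0887 and 0.121. Adamts9, the versican-cleaving enzyme with the highest CPM of this class, was at 105, 139, 122, 128 and 70.2 CPM in WT and at 133, 125, 123 and 105 CPM in the libraries labelled FcgRIIB-/-. These values overlapped and did not pass (log2 fold change 0.11, standard error 0.17, adjusted p = 0.648), and 9.18% of its exon length is shared with a gene on the opposite strand.

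Adamts4 and Adamts5, the main aggrecanases of cartilage, did not pass (log2 fold changes -0.51 and -0.35, adjusted p 0.0881 and 0.0683). With the replicate number added to the edgeR model, both passed as lower (log2 fold changes -0.59 and -0.40, adjusted p 0.0432 and 0.0152). Adamts4 lies 274 kb from Fcgr2b on chromosome 1. Adamts8 and Adamts20 did not pass either, at 0.20 and -0.22. The members of this class include neighbours. Adamts1, which fell, and Adamts5 lie side by side on chromosome 16, and Adamts15, which fell, and Adamts8 on chromosome 9.

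Among the procollagen N-proteinases, which remove the amino-terminal propeptide of fibrillar procollagens, Adamts2 fell. It (gene 216725, chromosome 11 from 50602085 to 50807573) was at 180.1, 219, 195, 187 and 215 CPM in WT and at 131, 115, 101 and 123 CPM in the libraries labelled FcgRIIB-/-. The groups were well apart, and Adamts2 had the lowest adjusted p of the 39 tested members in edgeR (log2 fold change -0.76, standard error 0.09, adjusted p = 5.16e-04), at 59.0% of WT. Adamts3 and Adamts14, the other enzymes of this kind, did not pass, with log2 fold changes of -0.18 and 0.18. Without WT replicate 5, Adamts3 passed as lower in edgeR (log2 fold change -0.20, adjusted p = 0.0365).

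Of the 8 other ADAMTS genes tested, 3 fell, where 19.3% of all tested genes did. Adamts18 (gene 208936, chromosome 8 from 113697123 to 113849343), whose human counterpart is mutated in inherited eye disease, was at 7.14, 11.0, 5.82, 8.74 and 13.0 CPM in WT and at 4.45, 3.33, 2.08 and 2.33 CPM in the libraries labelled FcgRIIB-/-. The groups were separate and the fold of WT over the knockout label was 2.97 (log2 fold change -1.57, standard error 0.29, adjusted p = 0.00300). Adamts12, which cuts cartilage oligomeric matrix protein, was at 10.5, 11.5, 11.6, 12.8 and 12.8 CPM in WT and at 9.46, 6.79, 6.52 and 4.76 CPM in the libraries labelled FcgRIIB-/-. These groups did not overlap either (log2 fold change -0.78, standard error 0.17, adjusted p = 0.00698).

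Adamts7, a relative of Adamts12 with the same cartilage substrate, was at 8.33, 11.2, 8.52, 8.88 and 9.25 CPM in WT and at 7.46, 7.26, 7.41 and 7.50 CPM in the libraries labelled FcgRIIB-/-. The mice of the knockout label were nearly alike and just below the lowest WT mouse (log2 fold change -0.32, standard error 0.11, adjusted p = 0.0492). This call was lost when any 1 of the 9 libraries was left out, WT replicates 1 to 5 and FcgRIIB-/- replicates 1 to 4 alike, with log2 fold changes between -0.34 and -0.22 and adjusted p between 0.0607 and 0.127, and Adamts7 did not pass in DESeq2 (adjusted p = 0.0514). Adamts10, which binds fibrillin microfibrils, was at 144, 149.8, 176, 138 and 111 CPM in WT and at 157, 169, 166 and 247 CPM in the libraries labelled FcgRIIB-/-. FcgRIIB-/- replicate 4 was highest, and the groups overlapped. The difference did not pass (log2 fold change 0.36, standard error 0.15, adjusted p = 0.0957) and passed without WT replicate 3 (log2 fold change 0.46, adjusted p = 0.0437). Adamts6, Adamts16, Adamts17 and Adamts19 did not pass in edgeR, with log2 fold changes between -0.51 and 0.19. Of these, Adamts19 was at an adjusted p of 0.0536 in edgeR and passed in DESeq2 (log2 fold change -0.50, adjusted p = 0.0372). Adamts6 passed as higher in edgeR without FcgRIIB-/- replicate 1 (adjusted p = 0.0481). Adamts13, the protease of von Willebrand factor, had at most 6 counts in any library and was not tested.

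Levels of different genes were compared per length, as CPM per kilobase of exons. In WT the highest were Mmp2 at 336 ± 43.7 (SD, n = 5), Timp2 at 294 ± 43.6, Mmp13 at 261 ± 153, Timp3 at 169 ± 57.6 and Mmp14 at 133 ± 9.73. In the libraries labelled FcgRIIB-/- the order began with Mmp2 at 197 ± 19.5 (SD, n = 4), followed by Timp2 at 159.9 ± 19.9, Mmp13 at 127 ± 55.5, Timp3 at 118 ± 14.3 and then Mmp20 at 101 ± 15.0. Neighbours in these orders differed by less than the sum of their SDs. Mmp9 was at 74.8 ± 18.5 in WT, within the spread of Mmp20 at 64.8 ± 19.7, and at 20.9 ± 9.02 under the knockout label, where Mmp20 was at 101. The summed CPM of all Mmp genes, to which long and abundant genes add most, lay between 2845 and 4268 CPM in WT and between 1955 and 2233 CPM in the libraries labelled FcgRIIB-/-, and that of the Timp genes between 2252 and 3714 CPM in WT and between 1476 and 1939 CPM in the libraries labelled FcgRIIB-/-. Neither sum overlapped between the groups. The summed Adamts CPM, between 716 and 920.4 CPM in WT and between 682 and 729 CPM in the libraries labelled FcgRIIB-/-, did overlap.

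**Figure D3:**
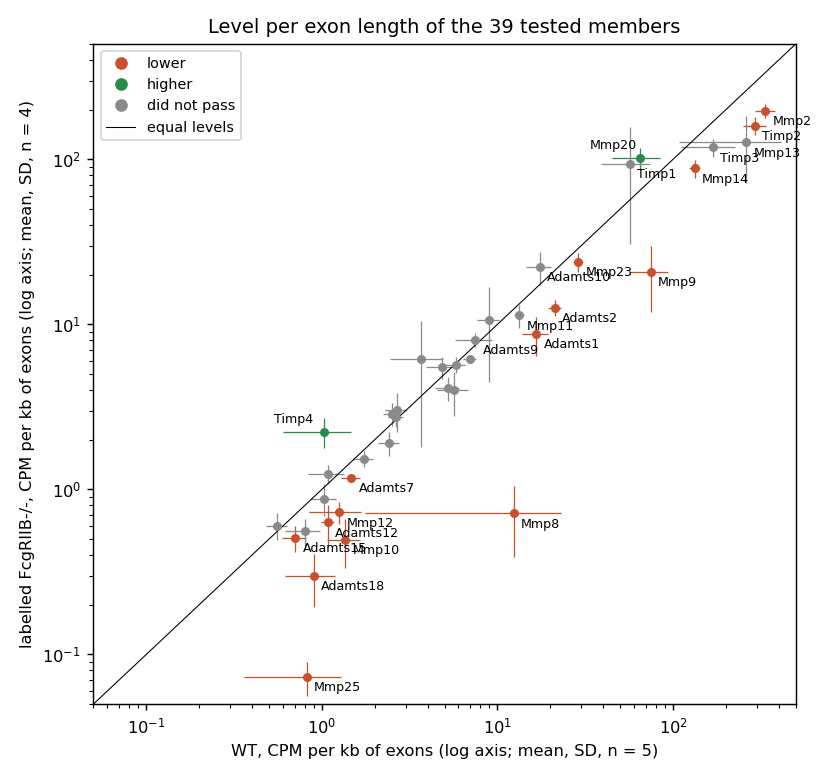
Mean level per kilobase of exons of the 39 tested members in WT (horizontal) and in the libraries labelled FcgRIIB-/- (vertical), both on log axes, with bars of 1 SD (n = 5 and n = 4) and a line of equal levels. Mmp2 at 336 and 197 CPM per kb is highest in both groups, and Mmp8 and Mmp25 lie farthest below the line.

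In a bulk tissue, fewer cells of a type and less RNA per cell cannot be told apart, so the marker genes of cell types a mandible can hold were measured beside the members. For comparison, 19.3% of all tested genes fell and 14.0% rose. All 12 neutrophil markers fell, with a median log2 fold change of -3.05, and their summed level lay between 1207 and 3653 CPM in WT and between 148 and 444 CPM in the libraries labelled FcgRIIB-/-. Mmp8, Mmp25 and Mmp9 fell beside them. Of 8 osteoclast markers 7 fell (median -1.23), with sums between 726 and 987 CPM in WT and between 291 and 465 CPM in the libraries labelled FcgRIIB-/-. Of 9 tested macrophage markers 4 fell and 0 rose in edgeR (0 also at an unadjusted p under 0.05 and 0 in DESeq2), and their sums overlapped, between 382 and 572 CPM in WT and between 328 and 415 CPM in the libraries labelled FcgRIIB-/-. Of 8 fibroblast and periodontal ligament markers 6 fell (median -0.52), with sums between 36132 and 50994 CPM in WT and between 20569 and 25969 CPM in the libraries labelled FcgRIIB-/-. Of 6 ameloblast markers 4 rose (median 0.79), with sums between 9412 and 25562 CPM in WT and between 28886 and 50038 CPM in the libraries labelled FcgRIIB-/-. No marker of these lists was at 0 in every library. The part of these cell types in the results for the members was not tested.

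Other marker lists were counted as well, and 19.3% of all tested genes fell. All 6 B lineage markers fell, 5 of 6 mast cell markers fell, and 7 of 9 tested markers of keratinized epithelium fell while Krt5 rose. The summed keratinized epithelium markers overlapped, between 3852 and 10339 CPM in WT and between 4672 and 5853 CPM in the libraries labelled FcgRIIB-/-. Of 11 osteoblast and osteocyte markers 4 fell, but the list had no common direction. Its median log2 fold change was 0.06, with 5 negative and 6 positive changes, and its sums overlapped between the groups. Of 5 tested chondrocyte markers 1 fell, and of 6 endothelial markers 1 fell. The chondrocyte and endothelial shares were near that of all tested genes. The odontoblast marker Dspp did not pass (log2 fold change 0.43, adjusted p = 0.187).

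The ratio of a member to a marker sum within each mouse sets the size of both changes side by side. Each sum is weighted to its most abundant markers. The log2 ratio of Mmp8 to the neutrophil sum averaged -6.25 ± 0.39 (SD, n = 5) for WT and -7.33 ± 0.37 (SD, n = 4) for the knockout label, lower in every mouse of the knockout label. The single neutrophil markers had log2 fold changes between -4.48 and -2.19, a range that held Mmp8 at -4.08. For Mmp25 the log2 ratio to the neutrophil sum differed by -0.46, with overlapping groups. For Mmp9 it differed by 0.91 against the neutrophil sum, where the groups overlapped, by -0.86 against the osteoclast sum and by -1.64 against the macrophage sum, where they did not. Per mouse, the ratio of Mmp9 to the osteoclast sum was 0.291 to 0.360 in WT and 0.0985 to 0.223 in the libraries labelled FcgRIIB-/-. The log2 ratio of Mmp20 to the ameloblast sum differed by -0.50, lower in every mouse of the knockout label although Mmp20 itself was higher. The single ameloblast markers had log2 fold changes between 0.50 and 1.34, a range that held Mmp20 at 0.64. Mmp12 to macrophage markers (-0.42) and Mmp13 to osteoblast and osteocyte markers (-1.09) overlapped. The ratios of Mmp2, Mmp14 and Adamts2 to the fibroblast and periodontal ligament markers differed by 0.03, 0.20 and 0.04, with overlapping groups. These ratios are descriptions without a test.

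**Figure D4:**
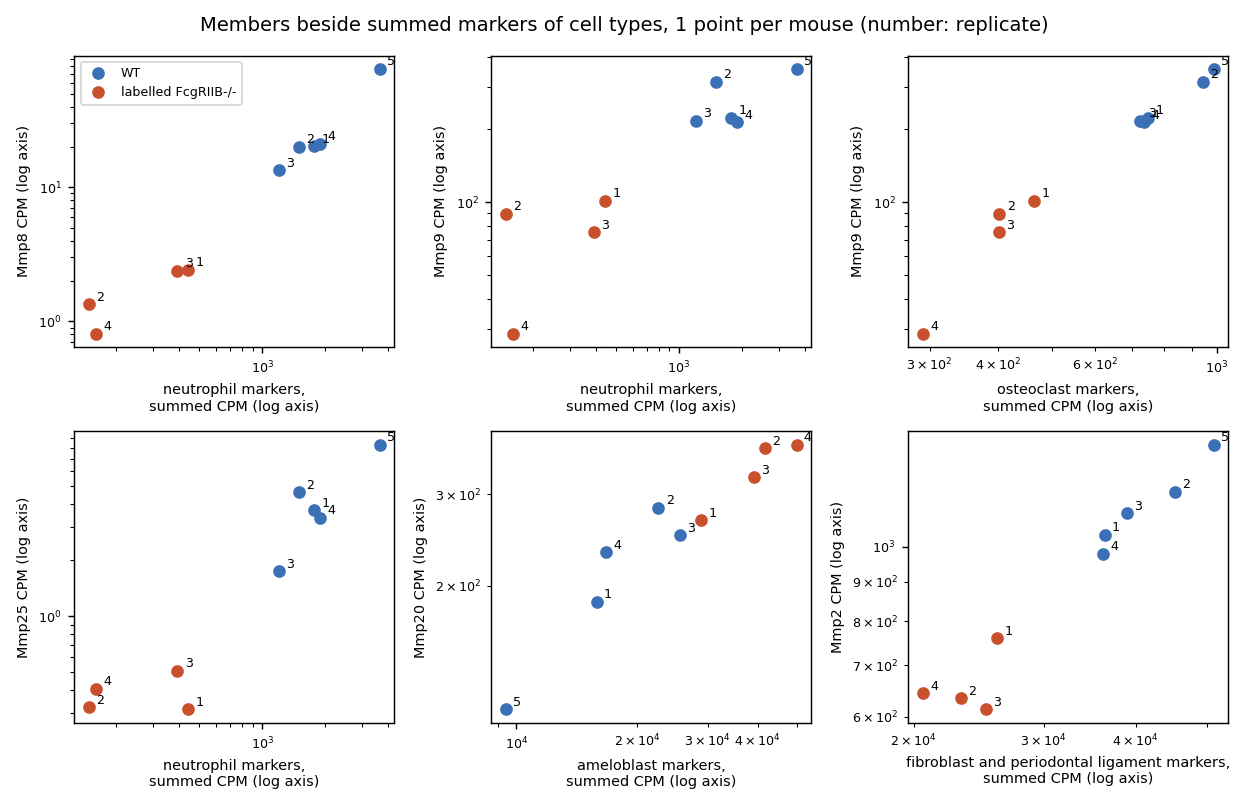
CPM of Mmp8, Mmp9, Mmp25, Mmp20 and Mmp2 in each mouse (vertical) against the summed CPM of marker genes of a cell type in the same mouse (horizontal), both on log axes, with the replicate number beside each point. The genotypes separate on the neutrophil, osteoclast, ameloblast and fibroblast sums, and WT replicate 5 has the highest neutrophil sum, 3653 CPM, and the highest Mmp8, 76.1 CPM.

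Ratios between proteases and inhibitors were given for the same mice. Mmp9 to Timp1 had linear CPM ratios of 4.08 to 7.02 in WT and 0.454 to 2.04 in the libraries labelled FcgRIIB-/-, a log2 difference of -2.53 with no overlap between the groups. Mmp9 fell and Timp1 did not pass. Mmp14 to Timp2 (0.27) and Mmp2 to Timp2 (0.11), the members of the complex that activates MMP2, overlapped between the groups. The summed Mmp to summed Timp CPM differed by -0.04 on the log2 scale, with overlapping groups.

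**Figure D5:**
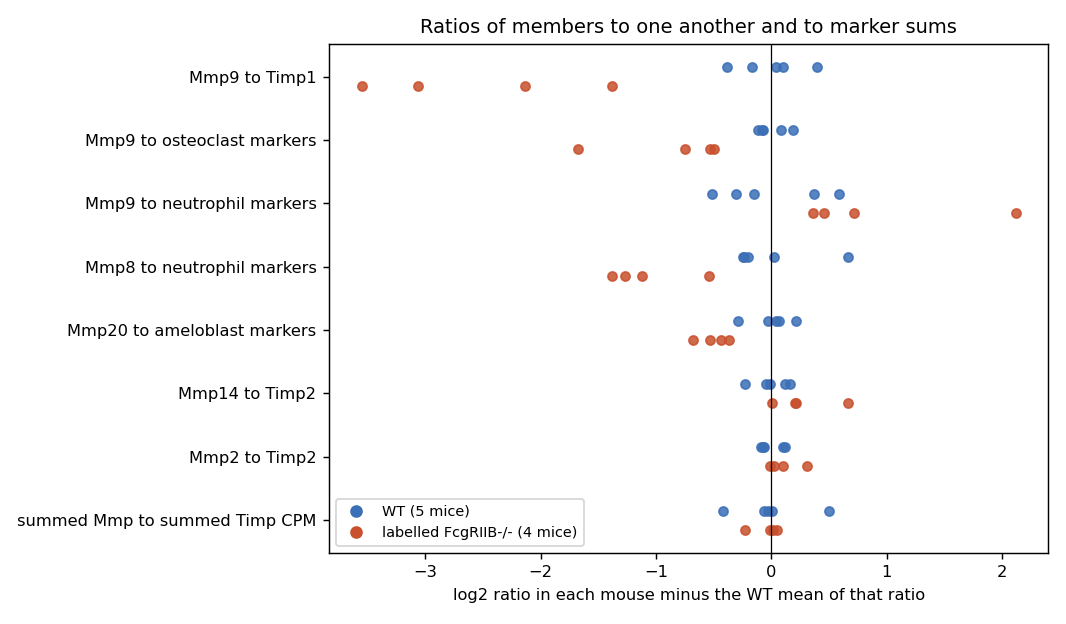
Log2 ratio in each mouse minus the WT mean of that ratio, for members against each other and against marker sums, with 5 WT mice and 4 mice labelled FcgRIIB-/-. Mmp9 to Timp1 differs by -2.53 and Mmp8 to neutrophil markers by -1.08 without overlap, and Mmp2 to Timp2 and the summed Mmp to Timp ratio overlap.

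Genes that work with these families were examined from lists chosen for their function, with earlier results of these data known. Of 50 such genes 46 were tested, 18 fell (19.3% of all tested genes did) and 4 rose (14.0% did). Among the ADAM proteases, membrane relatives of the ADAMTS enzymes, 4 of 9 fell. Adam19 fell most (32.5 ± 4.10 (SD, n = 5) in WT and 21.3 ± 1.25 (SD, n = 4) CPM under the knockout label, log2 fold change -0.61, standard error 0.10, adjusted p = 0.00154), followed by Adam12 (log2 fold change -0.47, standard error 0.12, adjusted p = 0.0121), and both are meltrins. Of 7 ADAMTS-like and related genes, which lack the protease domain, 3 fell and 3 rose. Thsd4, which takes part in fibrillin assembly, fell (204 ± 30.1 (SD, n = 5) and 105 ± 18.8 (SD, n = 4) CPM, log2 fold change -0.96, standard error 0.14, adjusted p = 0.00117), as did Adamtsl1 (log2 fold change -0.75, standard error 0.12, adjusted p = 0.00134). Papln, the basement membrane protein papilin, rose (134 ± 56.8 (SD, n = 5) and 283 ± 49.7 (SD, n = 4) CPM, log2 fold change 1.08, standard error 0.27, adjusted p = 0.0124) with overlapping groups, as did Adamtsl2 (log2 fold change 0.65, standard error 0.20, adjusted p = 0.0274) with separate ones. The call of Adamtsl2 was lost without FcgRIIB-/- replicate 2 or 4, with adjusted p up to 0.0825.

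Plasmin activates several MMP precursors, and 3 of 6 tested genes of the plasminogen system fell, where 19.3% of all tested genes did. Serpinb2, an inhibitor of urokinase, was at 21.4, 26.3, 21.4, 11.0 and 46.3 CPM in WT and at 3.15, 3.79, 9.79 and 5.17 CPM in the libraries labelled FcgRIIB-/- (log2 fold change -2.21, standard error 0.43, adjusted p = 0.00396). Plaur, the urokinase receptor, also fell (log2 fold change -0.70, standard error 0.19, adjusted p = 0.0169). Of 15 genes for MMP activation and surface control, 6 fell and 1 rose. A2m, a plasma protein that traps proteases, fell (log2 fold change -1.79, standard error 0.51, adjusted p = 0.0213). Its WT replicate 2 had 15.4 CPM against 3.16 to 4.35 CPM in the other WT mice, its log2 fold change was -1.07 without that mouse, and its call was lost without FcgRIIB-/- replicate 4 (adjusted p = 0.0590). Spock3, a testican, fell (log2 fold change -1.52, standard error 0.36, adjusted p = 0.00972) at a mean below 1 CPM in both groups. Bsg, basigin, a surface protein known to induce MMPs in neighbouring cells, rose (462 ± 35.4 (SD, n = 5) and 586 ± 28.9 (SD, n = 4) CPM, log2 fold change 0.34, standard error 0.08, adjusted p = 0.0102). The 4 tested procollagen C-proteinase genes, which trim the other end of procollagen, did not pass in edgeR (0 at an unadjusted p under 0.05 and 0 in DESeq2), with log2 fold changes between -0.26 and 0.23. Of 5 cysteine cathepsin genes, Ctsk, the collagen-cutting enzyme of osteoclasts, fell (471 ± 67.4 (SD, n = 5) and 231 ± 35.9 (SD, n = 4) CPM, log2 fold change -1.03, standard error 0.13, adjusted p = 6.86e-04), and so did Ctsb (log2 fold change -0.28, standard error 0.10, adjusted p = 0.0458), whose call was lost when any 1 of the 9 libraries was left out, with adjusted p up to 0.112. Ctsk is also in the osteoclast marker list, and Klk4, which did not pass, is in both the ameloblast and the surface control list.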

How the data were processed

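Whole mandibles with teeth of 5 WT mice and 4 mice labelled FcgRIIB-/- were pulverized, and poly(A) RNA was sequenced from a directional kit, 1 library per mouse. Per the labels and the study's methods, the authors used Trim Galore for trimming, HISAT 02.1.0 for mapping to mm10 and featureCounts for counting on genes. The deposited values are these raw counts without normalization. The annotation, the strand setting of the counting and the treatment of reads matching several genes are not given in the sources used here. Of the count table, 1 column that matched no labelled sample was not used.

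Groups and replicate numbers were taken from the labels. Near-identical libraries were looked for in all 16 pairs within a genotype, and 0 were found. From the counts, R 4.3.3 with edgeR 4.0.16 was used for the filter (filterByExpr, minimum count of 10), TMM normalization and the quasi-likelihood test of genotype without covariates, with Benjamini-Hochberg adjustment over all 16329 tested genes at 0.05 and no fold limit. The standard error of a log2 fold change is its size divided by the root of the test's F value. CPM are counts scaled to the normalized library size, and the limit for 0 counts covers counting error only. Mmp25 had between 7 and 213 counts per library, so counting error adds to the spread of such low members. DESeq2 1.42.0, other normalizations and filters, stricter thresholds, a replicate block and leaving out each mouse were alternatives. The test was tested on simulated counts.

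The members follow from their symbols. Members given mouse by mouse are those past the threshold with a mean of at least 1 CPM in a group, the 4 Timp genes, the member of each role class with the highest CPM, and Mmp25. Of the related genes, the 2 with the largest change per direction among those that passed were named for each list. The role classes, related genes and marker lists, like the choice of these gene families, were set with earlier results of these data known. Counts of members and of these lists are therefore descriptions. Coordinates, exon lengths and promoter windows come from RefSeq and GENCODE tables of GRCm38 (mm10).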

Additional observations from a re-analysis of the deposited data

Results flagged for a closer look

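Single mice far from the rest of their genotype were looked for in the 23 members described mouse by mouse, in both genotypes, which gave 46 groups. By Dixon's criterion 5 groups had such a mouse. Chance gives about 1 in 20 for independent groups of normally distributed values. These groups are genes measured in the same mice, so their number cannot be judged against that rate. Mmp8 in WT replicate 5 was at 76.1 CPM, and the next WT mouse was at 21.0 CPM. Timp2 in WT replicate 5 was at 1445 CPM, with the next at 1095 CPM. Timp3 in WT replicate 5 was at 2209 CPM, with the next at 1255 CPM. Mmp13 in WT replicate 2 was at 1413 CPM, with the next at 656 CPM. Adamts10 in FcgRIIB-/- replicate 4 was at 246.7 CPM, with the next at 169 CPM. WT replicate 5 accounted for 3 of the 5. Without WT replicate 5 the log2 fold change was -3.37 for Mmp8, -0.76 for Timp2 and -0.25 for Timp3, and the call of the first and second of these genes was kept. Mmp13 without WT replicate 2 had a log2 fold change of -0.60, Adamts10 without FcgRIIB-/- replicate 4 one of 0.19, and neither passed.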

How the results depend on the processing

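The 23 members described mouse by mouse were recomputed under 16 alternatives. Of the 17 that passed, 11 passed under every alternative that gave a value (Mmp8, Mmp2, Mmp9, Mmp10, Mmp14, Mmp25, Timp2, Adamts1, Adamts2, Adamts12 and Adamts18), and Mmp25 gave none under a filter of at least 10 counts in every library. The calls of Mmp12, Mmp20, Mmp23, Timp4, Adamts7 and Adamts15 were lost under at least 1 alternative. The direction reversed once, for Adamts9, which was not called, at -0.019 under the replicate block. The cause of these changes was not tested.

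With a log2 fold change of at least 1 in addition, 1069 genes fell and 181 rose, 5 members fell and 1 rose, and 5 related genes fell and 1 rose. At an adjusted p under 0.01, 1763 genes fell and 869 rose, 11 members fell and 0 rose, and 10 related genes fell and 0 rose. These counts are smaller by construction. Without WT replicates 2 and 5 together, an alternative chosen after the values were seen, 2066 genes fell and 1479 rose, and 12 members fell and 2 rose. Leaving out 1 mouse at a time, between 11 and 14 members fell and between 0 and 3 rose. The number that rose was 1 without WT replicate 1, WT replicate 4 or FcgRIIB-/- replicate 3, and 0 without FcgRIIB-/- replicate 2, where Mmp20 and Timp4 both missed the threshold. The share of all tested genes in these fits is not given here. These member counts therefore cannot be told from a shift in the calls of all genes.

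Replicate numbers are shared between the genotypes in the labels, but the correlations of same-numbered mice were 0.097, 0.028, -0.11 and -0.074 for numbers 1 to 4, and 1 of 8 libraries correlated best with its own number, so the numbers were not taken as pairs. With the replicate block, 2410 genes fell and 1594 rose, 14 members fell and 2 rose, and 12 related genes fell and 4 rose. WT replicate 5 shares its number with no mouse of the knockout label, so it adds nothing to the genotype difference in this fit. Mmp8, for example, was at -3.41 under the block and at -3.37 without WT replicate 5. Depth limits the low members most, and the 7 untested members cannot be compared.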

Other observations

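Among the mice labelled FcgRIIB-/-, replicate 3 lay above every other mouse of the 9 in Timp1 (165.8 CPM), in Mmp19 (69.2 CPM) and in Mmp3 (22.0 CPM), where the other mice of that label reached 74.0, 34.1 and 10.4 CPM. Replicate 4 lay below every other mouse in Mmp9 (28.7 CPM) and Mmp13 (139.8 CPM). These members were picked out after their values were seen, and no explanation was tested. Mmp19 shares 22.3% of its exon length with Tmem198b on the opposite strand.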
